A study of Drosophila melanogaster with 6 samples.

Results

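The tetraspanin genes were followed in midguts of adult Drosophila melanogaster after RNA interference against Rab11. Members were the rows of the count table whose name is Tsp followed by a digit and a chromosome band. There were 34 such rows among 15391. Of these, 25 had at least 10 counts in 3 or more libraries and are described in full, and 24 of the 25 also passed the filter for the test between groups. The 6 libraries were made from total RNA of dissected midguts, 3 from Rab11 knockdown flies and 3 from flies labelled wild type. In the knockdown, Myo1A-Gal4, a driver active in the absorptive enterocytes, expressed the interference construct, and no transgene is named for the controls. Flies of both groups were moved to 29 °C at 5 days after eclosion and held there for 5 days. The labels give the cell type as enterocyte and the tissue as midgut, and markers of other gut cells were present, as described below. They name both Illumina and Ion Torrent protocols without saying which library used which, and do not say how many animals were pooled or whether the libraries of a group are separate cultures. The p-values therefore rest on the spread among these libraries alone, and that may be technical.

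Tetraspanins are small proteins that cross the membrane several times and carry a large outer loop with conserved cysteines. They gather partner proteins, such as integrins, proteases and junction proteins, into membrane domains and take part in their traffic to and from endosomes. Rab11 is a small GTPase of the recycling endosome, which returns membrane proteins to the cell surface. In the fly gut the best described member is Tsp2A, a component of the smooth septate junctions that seal the space between enterocytes.

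Levels are CPM, read counts scaled to a common library total and between libraries by TMM, a method that lines up the bulk of the genes. Each change is a log2 fold change, knockdown against control, with its standard error (SE), tested with edgeR's quasi-likelihood test and adjusted by Benjamini-Hochberg over 8377 genes, with a threshold of 0.05. Libraries held 9818914 to 33082790 counts. The replicate 3 library of each group was the deepest and stood apart from replicates 1 and 2 on the second principal component, which held 30.9% of the variance, while the first, with 49.4%, set knockdown and wild type apart. Rab11 was lower in all 3 knockdown libraries, at 64.4, 78.2 and 78.7 CPM against 319, 270 and 219 in the wild type. Its log2 fold change was -1.87 ± 0.23 (SE, edgeR, adjusted p = 0.00342).

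Of the 24 tested tetraspanin genes, 6 rose in the knockdown and 0 fell at this threshold in edgeR. Over all genes tested in that fit, 9.05% were called higher and 7.63% lower. At an unadjusted p under 0.05 there were 10 higher members and 1 lower, beside 16.8% and 15.5% of all genes. DESeq2 called 9 members higher and 1 lower, beside 10.6% and 10.5% of its 9463 genes. The 6 were Tsp2A and 5 genes of the Tsp42E run, namely Tsp42Ed, Tsp42Ef, Tsp42Ei, Tsp42El and Tsp42Ep. Tsp42Ep passed the filter on low counts only through its 3 knockdown libraries, so it could enter the test only by being higher there, and of the other 23 members 5 rose. The median log2 fold change of the 24 was 0.54, beside 0.04 for all genes tested, and 18 of the 24 values were above 0. For 13 members every knockdown library lay above every wild-type library, which held for 20.2% of all genes, and for 1 member, Tsp42Eg, every knockdown library lay below, which held for 17.7%. With the replicate number as a block, 10 members passed as higher and 2 as lower, where the share over all genes was 15.2% and 14.0%. Pairing by number is weak for replicates 1 and 2. Their deviations from the group means correlated at 0.14 and 0.21 within a number, and at 0.34 and 0.51 across numbers. Values given with the block below carry this limit. Without both replicate 3 libraries 9 of 21 passed as higher and 2 as lower, beside 9.95% and 11.1% of all genes. Calls thinned out when a single library was left out: 3 members passed as higher without knockdown replicate 1 or 2 or without wild-type replicate 1 or 2, and Tsp42Ei passed whichever library was left out, as did Tsp42Ep, with the limit just given. Over all genes, 2.66% passed in this way as higher. RNA came from whole midguts, so more cells of a type and more RNA per cell cannot be told apart.

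**Figure D1:**
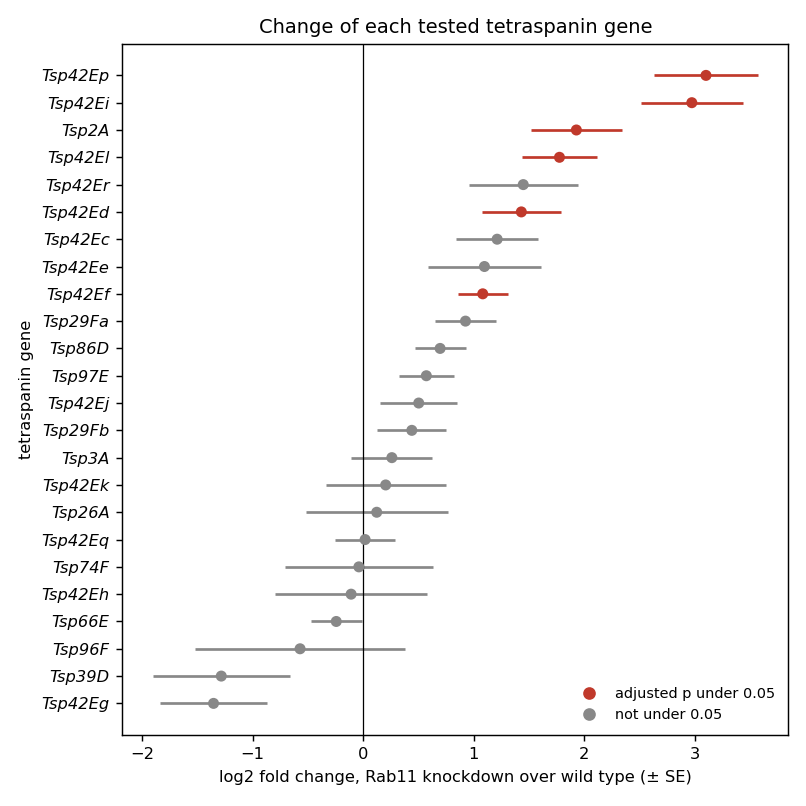
Log2 fold change of knockdown over wild type for each of the 24 tested tetraspanin genes, with bars of 1 standard error, from 3 libraries a group. The 6 genes in red had an adjusted p under 0.05, and all 6 lie above 0, from 1.08 for Tsp42Ef to 3.10 for Tsp42Ep.

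Tsp2A, the septate junction member, was 3.81-fold higher in the knockdown. Its level was 1171, 1547 and 756 CPM in knockdown replicates 1, 2 and 3 and 353, 377 and 182 CPM in the same wild-type replicates. The groups did not overlap, and replicate 3 was the lowest library of each. The means were 1158 ± 396 and 304 ± 107 CPM (SD, n = 3 each), and the log2 fold change was 1.93 ± 0.41 (SE, edgeR, adjusted p = 0.0220, or 0.00250 with the replicate block). Taken within each replicate number, the log2 ratio was 1.73, 2.04 and 2.06. The call was lost without knockdown replicate 1 (0.0797) or 2 (0.0641) and without wild-type replicate 1 (0.0734) or 2 (0.0595). The log2 fold change was between 1.62 and 2.14 over the fits with 1 library left out.

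Tsp2A acts together with other membrane proteins of the junction. A list of 8 genes including Tsp2A was examined, which also holds linker, polarity and lateral adhesion genes. Of the 8 genes, 5 rose and 0 fell in edgeR, as in DESeq2 and at an unadjusted p under 0.05, with a median log2 fold change of 1.42. Over all genes 9.05% were higher and 7.63% lower in edgeR. The shares were 10.6% and 10.5% in DESeq2, and 16.8% and 15.5% at the unadjusted p. Besides Tsp2A the 5 were mesh and hoka, which encode membrane proteins of the smooth septate junction, cora, a cytoskeletal linker, and Fas3, an adhesion protein of lateral membranes. The gene hoka went from 211, 203 and 139 CPM in the wild type to 789, 1045 and 703 CPM in the knockdown, at a log2 fold change of 2.20 ± 0.30 (SE, edgeR, adjusted p = 0.00475). The gene mesh was even within the knockdown, at 3826, 4146 and 3970 CPM against 1376, 1531 and 930 CPM. Its log2 fold change was 1.64 (edgeR, adjusted p = 0.0238), a call lost without any single library other than knockdown replicate 3. The gene cora changed by 1.37 (adjusted p = 0.0140) and Fas3 by 1.47 (adjusted p = 0.00944) in the same edgeR fit. The call of cora did not survive leaving out replicate 1 of the knockdown (0.0559) or of the wild type (0.0693), and those of hoka and Fas3 passed whichever library was left out.

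Ssk, the third membrane protein whose loss disturbs the smooth septate junction in the same way as that of Tsp2A and mesh, did not pass. It stood at 878, 1079 and 1126 CPM in knockdown flies against 646, 709 and 770 CPM in the wild type, without overlap, at a log2 fold change of 0.54 ± 0.27 (SE, edgeR, adjusted p = 0.210). The ratio of Tsp2A to Ssk reads, which does not depend on the scaling between libraries, was 1.33, 1.43 and 0.671 in knockdown flies against 0.547, 0.532 and 0.236 in the wild type. Every knockdown library had the higher ratio, and within each group replicate 3 had the lowest. The ratio of Tsp2A to mesh reads overlapped between groups, at 0.306, 0.373 and 0.190 in knockdown flies against 0.257, 0.246 and 0.196 in the wild type. The polarity genes dlg1 and l(2)gl, at log2 fold changes of 0.23 and 0.72, did not pass (edgeR, adjusted p = 0.555 and 0.356), and l(2)gl was far higher in knockdown replicate 3, at 454 CPM, than in replicates 1 and 2, at 161 and 148 CPM.

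**Figure D2:**
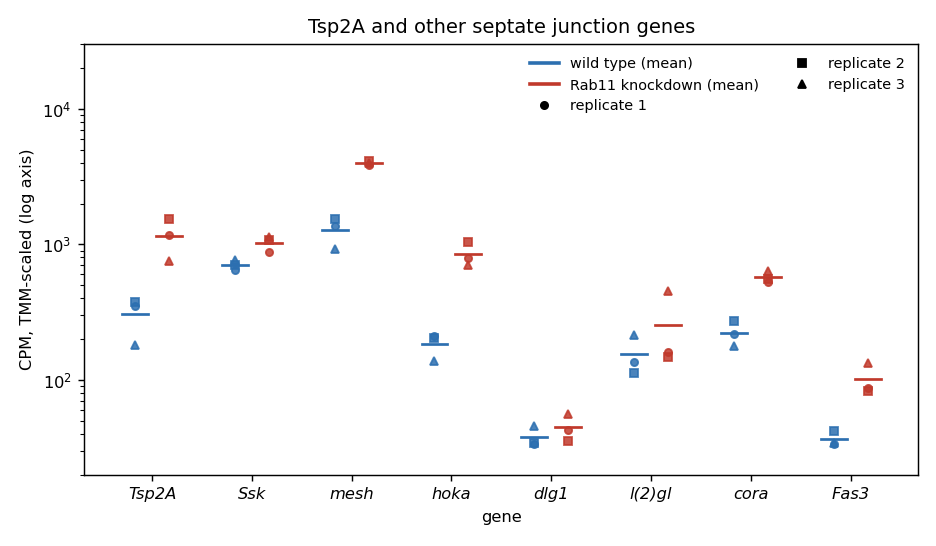
CPM of Tsp2A and 7 other septate junction genes in each library on a log axis, wild type in blue and knockdown in red, with the marker shape giving the replicate and the line the mean of 3 libraries. Tsp2A, mesh, hoka, cora and Fas3 separate by group and were called, Ssk separates by less and was not called, and dlg1 and l(2)gl overlap.

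The most abundant members were Tsp29Fb and Tsp29Fa, neighbours on chromosome arm 2L, with Tsp2A, Tsp42Ed and Tsp42Ec. Tsp29Fb had 1812, 2296 and 1617 CPM in knockdown flies against 1583, 1343 and 1293 CPM in the wild type. Its groups were separate by a small margin, and its log2 fold change of 0.44 ± 0.31 did not pass (SE, edgeR, adjusted p = 0.379). Tsp29Fa had 899.7, 1242 and 1028 CPM in knockdown flies against 629, 514 and 525 CPM in the wild type. Its groups lay further apart, and its log2 fold change was 0.93 ± 0.27 (SE, edgeR, adjusted p = 0.0590, or 0.0348 with the replicate block). Per kilobase of exon, the ratio of Tsp29Fb to Tsp29Fa was 2.28, 2.09 and 1.78 in knockdown flies against 2.85, 2.95 and 2.79 in the wild type, so that the balance between the neighbours was closer in all 3 knockdown libraries.

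Tsp42Ed and Tsp42Ec are the abundant genes of the Tsp42E run. Tsp42Ed rose, from 494, 399.6 and 274 CPM in the wild type to 1003, 1381 and 764 CPM in the knockdown. The groups did not overlap, and the log2 fold change was 1.43 ± 0.36 (SE, edgeR, adjusted p = 0.0349). Only the fit lacking knockdown replicate 3 kept that call, and the other 5 gave adjusted p of 0.0784 to 0.111. Tsp42Ec had 496, 823 and 408 CPM in the knockdown against 310.3, 272 and 164 CPM, again without overlap and with replicate 3 the lowest of each group. Its log2 fold change of 1.21 ± 0.37 had an adjusted p of 0.0662 in edgeR, or 0.0166 with the replicate block. The groups overlapped for Tsp42Eq, which had 122.6, 206 and 144 CPM in knockdown flies against 159.9, 184 and 122.7 CPM in the wild type, at a log2 fold change of 0.02 ± 0.27 (SE, edgeR, adjusted p = 0.970).

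Levels between genes were set side by side per kilobase of exonic length. In the wild type Tsp29Fb led, at 1143 ± 126 CPM per kb (SD, n = 3), above Tsp29Fa at 399.7 ± 45.6 in every library. Tsp42Ed, Tsp2A and Tsp42Ec followed at 312, 293 and 242 CPM per kb, with ranges that overlap from each to the next. In the knockdown Tsp29Fb still led, at 1552 ± 284 CPM per kb, and Tsp2A came next at 1117 ± 382, with overlapping ranges but Tsp29Fb the higher in each library. Tsp42Ed, Tsp29Fa and Tsp42Ec stood at 841, 759 and 562 CPM per kb. These 5 genes held 82.8% to 89.9% of the summed level per kb of all 34 members in the wild type and 84.2% to 92.4% in the knockdown. The share of Tsp29Fb was 40.1% to 43.9% in the wild type and 27.99% to 29.8% in the knockdown, and that of Tsp2A was 7.33% to 13.4% and 16.2% to 22.9%. Summed over all 34 members, the level was 2932 to 3734 CPM in the wild type and 5364 to 7878 CPM in the knockdown.

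**Figure D3:**
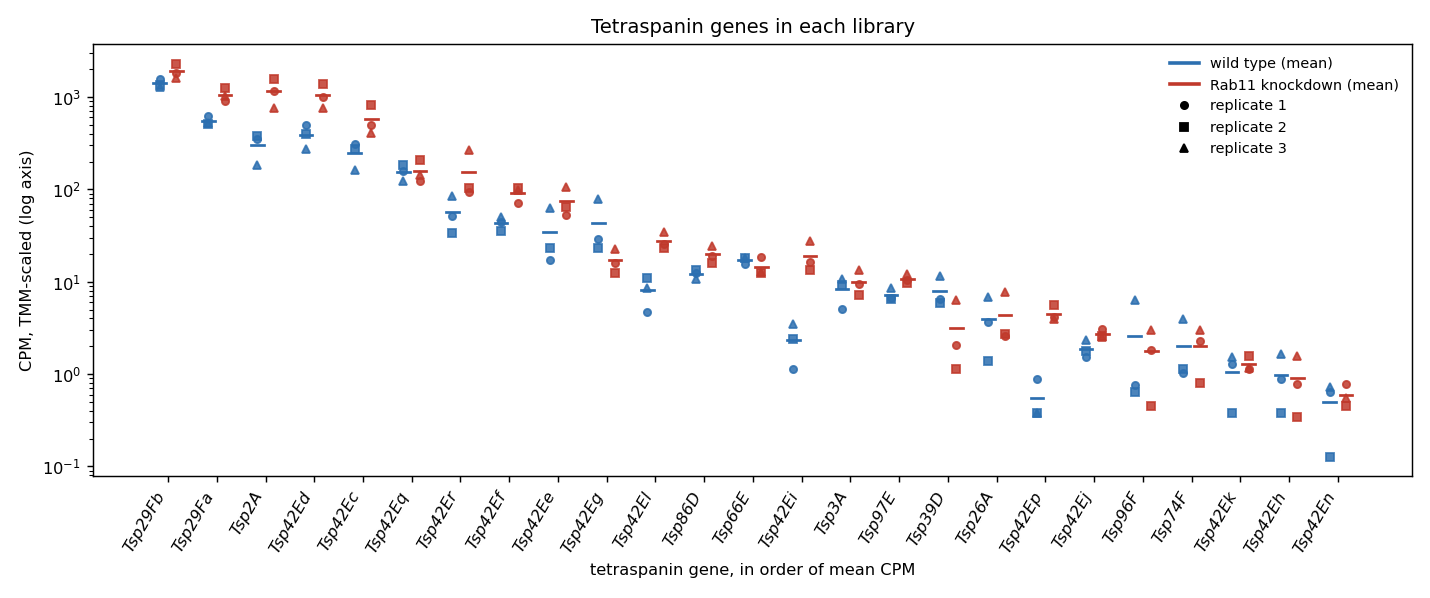
CPM of the 25 tetraspanin genes with enough counts in each library on a log axis, in order of mean CPM, wild type in blue and knockdown in red, with the marker shape giving the replicate and the line the mean of 3 libraries. Levels run from 2296 CPM in 1 library for Tsp29Fb to under 1 CPM for Tsp42En. For 13 members every knockdown library lies above every wild-type one. These include the 6 called genes, Tsp2A, Tsp42Ed, Tsp42Ei, Tsp42El, Tsp42Ef and Tsp42Ep, and uncalled ones such as Tsp29Fa and Tsp42Ec.

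The largest changes, those of Tsp42Ep and Tsp42Ei, were in members of low level, and that of the abundant Tsp2A came next. Tsp42Ep was nearly absent from the wild type, with 7, 3 and 12 counts, and had 58, 49 and 187 counts in the knockdown. In CPM this was 0.889, 0.382 and 0.377 against 4.10, 5.54 and 3.92. The groups did not overlap. Since all 3 wild-type libraries were under the filter on low counts and all 3 knockdown libraries above it, the gene was tested only because it was high in the knockdown, and its values are best read as a description. The log2 fold change was 3.10 ± 0.47 (SE, edgeR, adjusted p = 0.00677), with adjusted p between 0.0159 and 0.0384 over the fits with 1 library left out. Tsp42Ep overlaps Tsp42Eo on the other strand, and whether the counting used strand is not given in the sources used here. Tsp42Eo had 2, 4 and 166 counts in knockdown flies against 2, 3 and 8 in the wild type, too few for the test, so that knockdown replicate 3 alone was high.

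Tsp42Ei had 16.4, 13.3 and 27.4 CPM in knockdown flies against 1.14, 2.42 and 3.46 CPM in the wild type. All knockdown libraries were well above all wild-type ones, and the log2 fold change was 2.97 ± 0.46 (SE, edgeR, adjusted p = 0.00716, and 0.00917 to 0.0309 over the fits with 1 library left out). CG33914, which overlaps it on the other strand, had at most 6 counts in any library. Tsp42El rose from 4.70, 10.9 and 8.46 CPM to 25.4, 23.0 and 34.2 CPM, at a log2 fold change of 1.78 ± 0.34 (SE, edgeR, adjusted p = 0.0146), a call lost only without knockdown replicate 1 (0.0540). Tsp42Ef rose from 43.9, 35.0 and 49.6 CPM to 71.8, 102.8 and 97.9 CPM. Its groups did not overlap, and its log2 fold change was 1.08 ± 0.23 (SE, edgeR, adjusted p = 0.0199), a call lost without knockdown replicate 2 (0.0637) and without wild-type replicate 1 (0.0726) or 2 (0.0702).

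The Tsp42E run is a stretch of neighbouring tetraspanin genes on chromosome arm 2R with 17 members by name, of which 13 could be tested. Among these 5 rose, Tsp42Ep with the limit given above, and none fell in edgeR, with a median log2 fold change of 1.10. Outside the run 1 of 11 tested members, Tsp2A, rose, with a median of 0.26. Over all genes tested 9.05% were called higher and 7.63% lower, with a median of 0.04. No test sets the counts of the run and of the other members against each other. Called and uncalled genes are interspersed along the run. Tsp42Ed and Tsp42Ef flank Tsp42Ee, which stood at 1.10 ± 0.51 (SE, edgeR, adjusted p = 0.189), and Tsp42Eg and Tsp42Eh lie between Tsp42Ef and Tsp42Ei. Tsp42Ee overlapped between groups in CPM, at 53.0, 64.6 and 107 in knockdown flies against 17.1, 23.3 and 63.6 in the wild type. Within each replicate number it was higher in the knockdown, by 1.63, 1.47 and 0.75 on the log2 scale, and it passed with the replicate block (edgeR, adjusted p = 0.00814).

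Tsp42Er, at the far end of the run, had 94.1, 104 and 264 CPM in knockdown flies against 50.9, 33.9 and 84.2 CPM in the wild type. Replicate 3 was the highest of each group, and the groups did not overlap. The log2 fold change was 1.45 ± 0.49 (SE, edgeR, adjusted p = 0.0874, or 0.00683 with the replicate block). Tsp42Ej, known in the fly eye as a lysosomal protein also called sunglasses, and Tsp42Ek, with which it shares exon sequence on the same strand, had log2 fold changes of 0.50 and 0.20 (edgeR, adjusted p = 0.373 and 0.836). The groups did not overlap for Tsp42Ej and did for Tsp42Ek, and both stayed between 0.382 and 3.04 CPM in every library.

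Genes without the Tsp name lie in the run as well. Among them lbm, or late bloomer, is a tetraspanin of motor nerve terminals, and had 4.596, 4.975 and 6.53 CPM in knockdown flies against 3.05, 3.44 and 4.66 CPM in the wild type, overlapping, at a log2 fold change of 0.52 ± 0.31 (SE, edgeR, adjusted p = 0.300). Pgant3, an enzyme that starts O-linked sugar chains, lies between Tsp42Eo and Tsp42Eq. It rose from 21.1, 21.8 and 16.3 CPM to 169, 164 and 241 CPM, at a log2 fold change of 3.28 ± 0.25 (SE, edgeR, adjusted p = 0.00181), and passed whichever library was left out. CG30159, which shares exon sequence with Tsp42Ea on the same strand, stood at -0.63 ± 0.26 (SE, edgeR, adjusted p = 0.144, or 0.0380 with the replicate block).

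**Figure D4:**
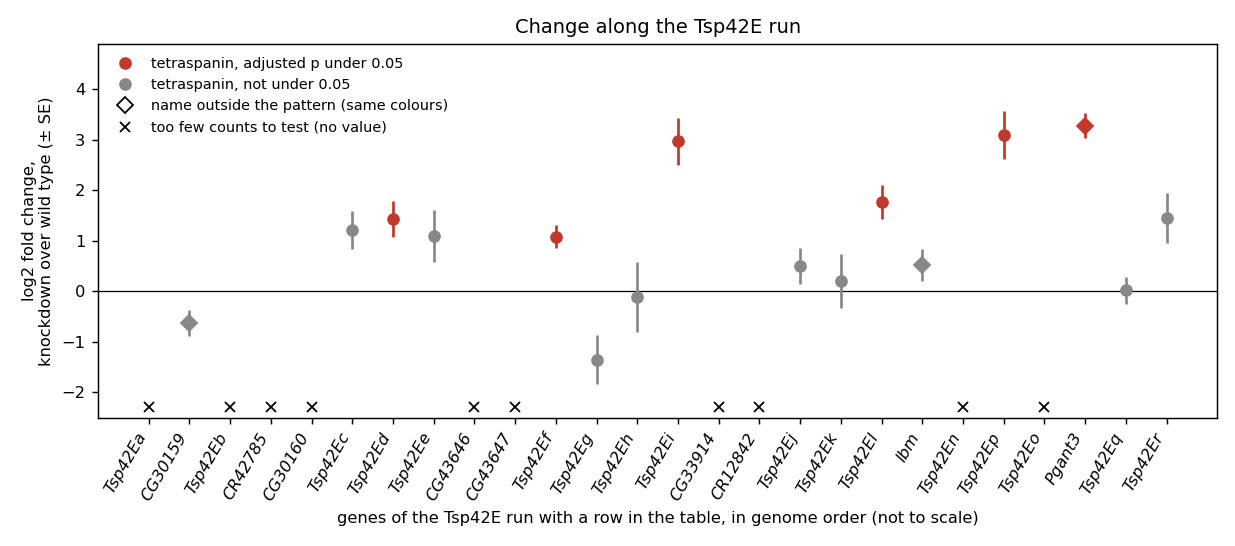
Log2 fold change (± 1 SE) of each gene of the Tsp42E run with a row in the table, in the genome order of the BDGP6 annotation with equal spacing. Circles are tetraspanins by name and diamonds other genes, red marks an adjusted p under 0.05, and crosses at the bottom mark genes with too few counts. Tsp42Ei, Tsp42Ep and the neighbouring Pgant3 stand highest, near 3, and Tsp42Eg is lowest, at -1.35.

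Members that stood lower in the knockdown did not pass in this fit. Tsp42Eg, in the middle of the run, had 15.9, 12.4 and 22.7 CPM in knockdown flies against 29.2, 23.2 and 77.9 CPM in the wild type. Its groups did not overlap, though knockdown replicate 3 came close to wild-type replicate 2, and wild-type replicate 3 was far above the other libraries. The log2 fold change was -1.35 ± 0.48 (SE, edgeR, adjusted p = 0.0990, or 0.0109 with the replicate block). Tsp39D had 2.05, 1.13 and 6.35 CPM in knockdown flies against 6.48, 5.86 and 11.6 CPM in the wild type, so that knockdown replicate 3 lay among the wild-type libraries. Within each replicate number the log2 ratio of knockdown to wild type was -1.66, -2.37 and -0.87, and the fit without a block gave -1.28 ± 0.62 (SE, edgeR, adjusted p = 0.202, or 0.0230 with the block). The groups overlapped for Tsp66E, at 18.5, 12.4 and 12.8 CPM against 15.5, 18.1 and 18.1 CPM, and had a log2 fold change of -0.24 ± 0.23 (SE, edgeR, adjusted p = 0.524).

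Tsp3A, Tsp26A and Tsp86D form the TspanC8 group, whose proteins bind the protease encoded by kuz and bring it to the surface, where it cleaves Notch. None of the 3 passed, nor did kuz or kul, a related protease gene. At an unadjusted p under 0.05 in edgeR 1 of these 5 genes was higher and 1 lower, beside 16.8% and 15.5% of all genes. DESeq2 called 0, beside 10.6% and 10.5%. Tsp86D, the most abundant of them per kilobase, had 19.0, 16.1 and 24.2 CPM in knockdown flies against 12.6, 13.5 and 10.7 CPM in the wild type, without overlap, at a log2 fold change of 0.70 ± 0.23 (SE, edgeR, adjusted p = 0.0816). Tsp3A had 9.54, 7.12 and 13.4 CPM against 5.08, 9.17 and 10.8 CPM, and its groups overlapped. Tsp26A had 2.62, 2.71 and 7.66 CPM against 3.68, 1.40 and 6.76 CPM, with overlapping groups and replicate 3 the highest library of each. The log2 fold changes of Tsp3A and Tsp26A were 0.26 and 0.12 (edgeR, adjusted p = 0.682 and 0.915). Exons of Tsp26A overlap those of Gal on the other strand, and Gal went from 415 ± 323 CPM in the wild type to 12.9 ± 6.37 CPM in the knockdown (SD, n = 3 each; log2 fold change -5.02, edgeR, adjusted p = 0.0181), so that the level of Tsp26A is uncertain if strand was not used. The gene kuz stood at 0.68 ± 0.34 (SE, edgeR, adjusted p = 0.212) and kul at -0.99 ± 0.33 (SE, edgeR, adjusted p = 0.0855).

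The integrins, adhesion receptors that tetraspanins bind in mammals, were examined with their inner linkers. Of 11 genes 10 could be tested, and 3 rose and 0 fell in edgeR (6 and 0 at an unadjusted p under 0.05, 4 and 0 in DESeq2), with a median log2 fold change of 0.82. Over all genes 9.05% were higher and 7.63% lower in edgeR (16.8% and 15.5% at the unadjusted p, 10.6% and 10.5% in DESeq2). The beta subunit mys rose from 141.6, 151.5 and 143.4 CPM to 471, 450.2 and 682 CPM, at a log2 fold change of 1.88 ± 0.26 (SE, edgeR, adjusted p = 0.00465). The alpha subunit scb rose from 238, 249.6 and 239.7 CPM to 640.1, 647 and 1023 CPM, at 1.67 ± 0.28 (SE, edgeR, adjusted p = 0.0101), a call lost only without wild-type replicate 1 (0.0547). The linker kinase Ilk stood at 0.91 ± 0.19 (SE, edgeR, adjusted p = 0.0206), a call lost without replicate 1 or 2 of either group (adjusted p 0.0520 to 0.0879). The alpha subunits mew, if and ItgaPS4 and the second beta subunit, Itgbn, had log2 fold changes of 0.34, -0.93, 1.52 and 1.15 (edgeR, adjusted p = 0.385, 0.169, 0.224 and 0.138), and rhea, parvin and stck, which encode linkers, of 0.74, 0.60 and 0.38 (adjusted p = 0.102, 0.0866 and 0.202). With the replicate block 7 of the 10 rose, beside 15.2% of all genes. ItgaPS5 had under 1 CPM in every library.

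The other members that could be tested were low. Tsp97E had 10.5, 9.72 and 12.3 CPM in knockdown flies against 6.60, 6.49 and 8.65 CPM in the wild type, without overlap, at a log2 fold change of 0.57 ± 0.25 (SE, edgeR, adjusted p = 0.159). Tsp74F, Tsp96F and Tsp42Eh overlapped between groups and had log2 fold changes of -0.04 ± 0.67, -0.57 ± 0.95 and -0.11 ± 0.69 (SE, edgeR, adjusted p = 0.974, 0.734 and 0.931). Their levels ran from 0.339 to 6.29 CPM. Tsp42En met the minimum of counts but was not tested, with 11, 4 and 26 counts in knockdown flies against 5, 1 and 23 in the wild type. Just outside the minimum lay Tsp42Ea, with 24, 7 and 10 counts in knockdown flies against 4, 4 and 7 in the wild type, and Tsp42Eo, described above. The other 7 members had almost no counts. Over all 6 libraries Tsp5D had 14 counts, Tsp47F 8, Tsp42A 6, Tsp33B 3, Tsp42Eb 1 and Tsp68C 1. Tsp66A had 0 of 105385555 counts, which, at 3 counts, allows a level of up to 0.0285 unscaled CPM, a limit for counting error only. Its exons overlap those of CG42660 and CG42661 on the same strand, which also had 0 counts. Its level is therefore uncertain if reads shared between genes were not counted.

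Many members also differed between replicate 3 and the other replicates in the same direction in both groups. Replicate 3 was the highest library of its group in knockdown and wild type alike for 11 of the 24 tested members, beside 29.0% of all genes, and the lowest in both for 5, beside 25.7% of all genes. The 5 were Tsp2A, Tsp42Ec, Tsp42Ed, Tsp29Fb and Tsp42Ep. For Tsp2A the log2 ratio of replicate 3 to the mean of replicates 1 and 2 was -0.85 in knockdown flies, and replicate 3 was the lowest of the wild type too, at 182 CPM against 353 and 377. For Tsp96F replicate 3 lay 1.39 above that mean in knockdown flies, on the same scale, and 3.17 above it in the wild type, where replicate 3 had 6.29 CPM against 0.762 and 0.637. For Tsp42Eg it lay 0.68 and 1.57 above, and for Tsp74F 0.98 and 1.86. Some summed marker levels differed in replicate 3 too. The sum of 10 enterocyte markers was lowest in replicate 3 of both groups, as were Tsp2A, Tsp42Ec and Tsp42Ed, at 27055, 54110 and 14655 CPM in the knockdown replicates and 89848, 97087 and 51421 CPM in the wild-type ones. Most of that sum came from the digestive enzyme genes alphaTry, betaTry, Amy-p and Jon65Aiii. For 3 of the 10 markers, Myo31DF, Mex1 and Npc1b, replicate 3 was instead the highest library of both groups. The sum of 13 visceral muscle markers was 2087 CPM in wild-type replicate 3 against 932 and 1078 in the others of that group, and 1226 to 1285 in the knockdown, where replicate 3 did not stand out. The trachea sum was highest in replicate 3 of the wild type and lowest in that of the knockdown. The sum of 8 hemocyte markers was 33.8 and 24.6 CPM in the replicate 3 libraries against 8.64 to 11.6 in the other 4, of which the defining markers He, NimC1 and eater had at most 10 counts in any library. The defining marker Hml had 6, 4 and 63 counts in knockdown flies against 4, 2 and 15 in the wild type, or 1.32 CPM in knockdown replicate 3 and at most 0.508 CPM elsewhere. The part of these cells and tissues, of depth or of the sequencing platform in the tetraspanin values was not tested.

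**Figure D5:**
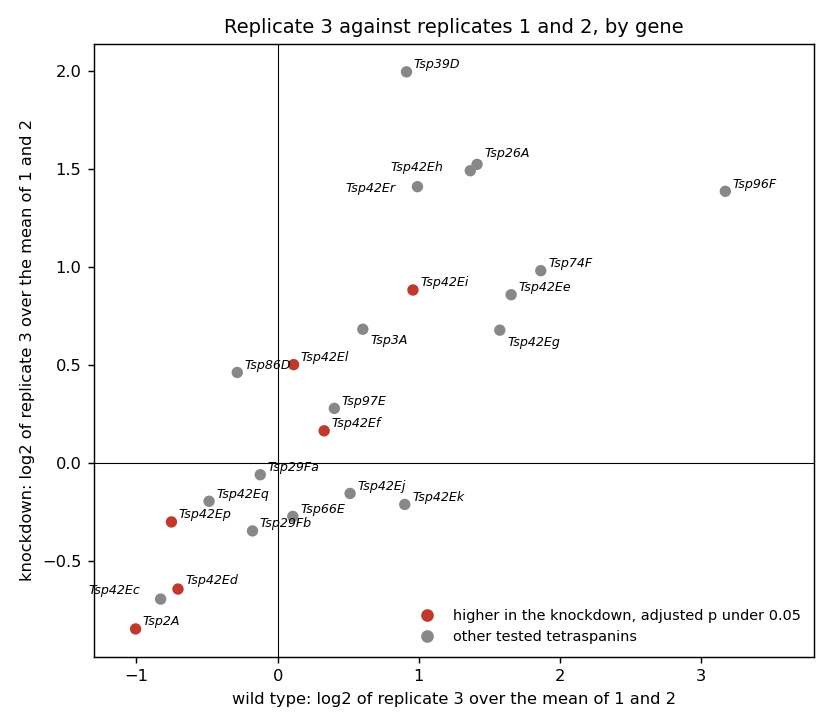
For each of the 24 tested members, log2 of the replicate 3 level over the mean of replicates 1 and 2, in the wild type (horizontal) and in the knockdown (vertical). Tsp2A, Tsp42Ec and Tsp42Ed lie at the lower left and Tsp96F, Tsp74F and Tsp39D at the upper right, and the called genes in red are found on both sides of 0.

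Some markers of other gut cells moved with the group. Over all genes, 9.05% were called higher and 7.63% lower in edgeR, or 15.2% and 14.0% with the replicate block. At an unadjusted p under 0.05 the shares were 16.8% and 15.5%, and in DESeq2 10.6% and 10.5%. All 12 enteroendocrine markers rose, and their sum was 863 to 1042 CPM in knockdown flies against 287 to 327 CPM in the wild type. The list for intestinal stem cells and their enteroblast daughters had 4 of 10 genes higher and 0 lower, with sums of 181 to 201 CPM and 55.6 to 106 CPM. Mip, AstC, CCHa1 and Orcokinin led the first list by p, and Dl, Sox21a, sna and Sox100B were those called in the second. Not called in the second were esg, N, klu, zfh2, E(spl)mbeta-HLH and spdo. Their log2 fold changes were 0.40, 1.01, -0.44, -0.03, 0.42 and 1.44 (edgeR, adjusted p = 0.354, 0.0680, 0.348, 0.972, 0.549 and 0.0535). The genes sna and sc passed the filter on low counts only through the knockdown libraries, and without them the counts were 3 of 9 and 11 of 11. Of 10 enterocyte markers none passed in edgeR (1 higher and 1 lower at an unadjusted p under 0.05, 1 and 2 in DESeq2), while with the replicate block Mex1 was higher and alphaTry, betaTry and LManV lower (adjusted p 0.0138 to 0.0268). The list had a median log2 fold change of -0.67 and sums of 14655 to 54110 CPM in knockdown flies against 51421 to 97087 CPM in the wild type. These sums came mostly from alphaTry, betaTry, Amy-p and Jon65Aiii and do not describe every marker. For nub and Mex1 every knockdown library lay above every wild-type one. For Myo31DF, betaTry, Vha100-4 and Jon65Aiii every knockdown library lay below, and the groups of the others overlapped. Of the called markers 5 enteroendocrine and 2 stem cell genes passed whichever library was left out. The trachea, visceral muscle and hemocyte lists and the list of fat body and ovary had 0 called of 8, 13, 4 and 4 tested in edgeR. At an unadjusted p under 0.05, 1 trachea gene was higher and 1 muscle gene, sls, was lower. DESeq2 called sls alone in these lists, again as lower. The egg genes osk, nos and vas were near 0. With the replicate block bnl of the trachea list (adjusted p = 0.0368) and apolpp of the fat body list (0.0435) passed as higher. The sum of the last list was 269 to 1038 CPM in knockdown flies against 70.0 to 381 CPM in the wild type, and that of trachea 67.3 to 73.8 and 55.9 to 74.4 CPM. Of 7 Malpighian tubule markers ClC-a, Best2 and Irk1 fell and 0 rose in edgeR, and none of these calls passed in all fits with 1 library left out. At an unadjusted p under 0.05, 1 of the 7 was higher and 4 were lower. In DESeq2, and likewise with the replicate block, 1 was higher and 3 were lower. The sum of the 7 was 349 to 593 CPM in knockdown flies against 555 to 1001 CPM in the wild type. The part of a changed mix of cells in the tetraspanin values was not tested.

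The authors' deposited table, in which the largest adjusted p is 0.0998, holds 11 of the 34 members, 10 higher and 1 lower. In the authors' deposited table Tsp42Ei, Tsp42Ep, Tsp42El and Tsp2A have the smallest adjusted p among members, at log2 fold changes of 2.69, 2.76, 1.66 and 1.79. Tsp42Eg is the lower gene in the authors' deposited table, at -1.23 with an adjusted p of 0.0305, and Tsp86D the only member there with an adjusted p over 0.05, at 0.0546.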

How the data were processed

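Unnormalised counts of reads for each gene, deposited by the authors as 1 table, cover the 6 libraries. The submitters' processing notes name build BDGP5 and, without roles, HTSeq 0.6.1, STAR 2.4.2a and DESeq2. How reads were counted, with which annotation and strand, is not given in the sources used here. The authors also deposited a comparison table with, per the file headers, DESeq2 mean counts and Wald statistics (scores without a fixed range), log2 fold changes with standard errors, and p-values with adjusted p-values. The Ensembl BDGP6 annotation is of another build and gave names, gene order and exonic lengths, with no coordinates. All 34 members matched a current gene. No member's sequence is shown.

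The filter was filterByExpr at 10 counts, which left 8377 of 15391 genes. These were scaled by TMM and tested two-sided on group alone with edgeR 4.0.16 (R 4.3.3). DESeq2 1.42.0 and other scalings and filters were alternatives. A standard error is the absolute log2 fold change over the root of its F statistic. Groups and replicate numbers come from the sample titles. Libraries with the same number deviated together from the group means, with correlations of 0.14, 0.21 and 0.71. By a rule of all 3 above 0.1, the replicate number entered an alternative fit as a block, while the main fit used group alone. This pairing rests on the data, and knockdown replicates 1 and 2 correlated more with the other of wild-type replicates 1 and 2 (0.34 and 0.51). The members and gene lists were chosen with earlier results of these data known. Named genes are Rab11, all members, the tested partner genes, the called markers up to 4 per list and markers near 0. Pgant3, CG30159, CG33914 and Gal, as neighbours or overlapping genes, and the other markers named were added after their values were seen.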

Additional observations from a re-analysis of the deposited data

How the results depend on the processing

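The count of 6 higher tetraspanins came to 10 with the replicate block, to 2 when the call had to pass with each single library left out (an alternative chosen after seeing the data), and to 3 to 6 with 1 library left out. The 2 were Tsp42Ei and Tsp42Ep. Each of these counts includes Tsp42Ep, which entered the test only through its knockdown libraries. Without it, 5 of 23 members rose in edgeR. All 6 remained called under the other scalings, filters and DESeq2, with further members added by 3 of these settings: Tsp29Fa, Tsp29Fb and Tsp42Ec with library sizes alone (9 in all), Tsp29Fa with upper-quartile factors (7), and Tsp29Fa, Tsp42Ec and Tsp42Er with DESeq2 (9). The count of 0 lower members became 1 with DESeq2, 2 with the block, 2 without both replicate 3 libraries, and 0 to 1 with 1 library left out. Over all genes, 758 higher became 1154 with library sizes alone, 1276 with the block and 277 to 578 with 1 library left out, and 639 lower became 240, 1175 and 183 to 572, and 997 with DESeq2. The 8 partner genes called higher became 3 to 8, and the 16 markers 8 to 15, with 1 library left out. The 3 lower markers became 0 with library sizes alone, 6 with DESeq2, 6 with the block, 5 without both replicate 3 libraries and 0 to 2 with 1 library left out. Library sizes alone moved the median log2 fold change of all genes from 0.04 to 0.47, and that of members from 0.54 to 0.96; upper-quartile factors gave 0.11 and 0.61.

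Signs turned only in uncalled genes. With library sizes alone Tsp42Eh came to 0.36, Tsp66E to 0.19 and Tsp74F to 0.40. Tsp74F came to 0.040 with upper-quartile factors and 0.047 with the block, and Tsp42Eq to -0.0040 with DESeq2-type size factors. Without both replicate 3 libraries Tsp42Eq came to -0.089 and mew to -0.0099. With 1 library left out the ranges were -0.61 to 0.75 for Tsp26A, -0.45 to 0.23 for Tsp42Eh, -0.14 to 0.58 for Tsp42Ek, -0.22 to 0.18 for Tsp42Eq, -0.46 to 0.89 for Tsp74F, -1.20 to 1.34 for Tsp96F, -0.020 to 0.45 for Tsp3A and -0.0037 to 0.998 for l(2)gl. Levels per kilobase moved by more than 1 SD for 46 of 50 values when coding length replaced exonic length, since the same CPM was divided by a shorter length. Tsp29Fb, Tsp29Fa, Tsp2A, Tsp42Ed and Tsp42Ec kept their ranks in both groups by either length. The cause of the changed calls and turned signs was not tested. Members under a few CPM rest on few counts in the shallower libraries.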
